A study of Mus musculus with 6 samples.

Results

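The genes examined were 8 transcription factor genes of the sympathoadrenal lineage, Hand1, Hand2, Phox2a, Gata2, Gata3, Isl1, Insm1 and Sox11, in the adrenal medulla of mice with and without pressure overload of the heart. They are 8 of 18193 genes with a probe set of their own in the platform annotation. All probe sets whose only symbol is one of these names were taken, 19 of the 45101 on the array. A probe set is a group of short probes that reads 1 gene. The medulla was microdissected from cryosections of adrenal glands of male C57/Bl6 mice, 8 weeks after surgery. The operation was transverse aortic constriction (TAC), in which the aorta is narrowed so that the heart pumps against more pressure, or a sham procedure. Each group held 3 arrays, and each array held RNA from both medullae of 1 animal, so the replicates were separate animals. The labels give no age. The Affymetrix Mouse Genome 430 2.0 array was hybridised with RNA amplified in a pair of cycles from the 3′ end.

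Chromaffin cells of the medulla and sympathetic neurons arise from neural crest precursors that pass through a shared programme of transcription factors. Hand2 and Hand1 are basic helix-loop-helix proteins that bind E-box motifs together with E proteins, Phox2a and Isl1 are homeodomain proteins, Gata2 and Gata3 are zinc finger proteins that bind GATA motifs, Insm1 is a zinc finger protein of neuroendocrine cells, and Sox11 is an HMG box protein of immature neural cells. Several of them stay on in the adult medulla, where Phox2a, Hand2 and Gata3 are known to act on the genes of noradrenaline synthesis.

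All values are log2 intensities or differences of them, with n = 3 per group. Spread among arrays is given as SD, whereas SE and the 95% interval come from a limma fit over all 18188 probe sets that reached log2 4 on at least 3 of the 6 arrays. Of the 19 probe sets of the 8 genes, 12 passed this filter, at least 1 for each gene. Levels of different probe sets are not compared with each other, since probes differ in how strongly they bind. In dissected tissue fewer cells of a type and less RNA per cell cannot be told apart. Defining markers of chromaffin cells were present on every array, and the mean over all 8 of them (Th, Ddc, Dbh, Pnmt, Chga, Chgb, Slc18a1 and Scg2) lay between 12.97 and 13.52 in sham and between 12.75 and 13.66 after TAC. The array labelled sham 1 stood apart. Its median over the tested probe sets was the lowest of the 6, at 6.31 against 6.50 to 7.01, and its Gapdh probe sets differed most between the 3′ and the 5′ end, by 5.15 against 2.88 to 4.71. A larger difference is read where transcripts are shorter. The mean of 7 adrenal cortex markers lay between 6.81 and 10.94 in sham and between 6.77 and 9.65 after TAC, highest in sham 3 and TAC 1. Sympathetic ganglion neurons, which the medulla can hold, also express most of the 8 genes. Of 9 neuron markers 8 were tested, 1 with a higher and 7 with a lower mean after TAC, and their mean lay between 6.66 and 7.66 in sham and between 6.04 and 7.10 after TAC. Fibroblast markers differed most of the marker lists. All 8 were tested, 2 with a higher and 6 with a lower mean after TAC (median -1.25, between -1.47 and -0.41 over 18 alternatives). In limma 1 of the higher and 4 of the lower had an unadjusted p under 0.05, with 0 past the adjusted threshold. Of all 10181 tested genes, 625 passed that unadjusted p with a higher and 117 with a lower mean. The mean of the 8 fibroblast markers lay between 7.32 and 8.60 in sham and between 6.62 and 7.75 after TAC. The mean of 4 tested macrophage markers of 6 lay between 7.05 and 8.54 in sham and between 7.41 and 8.96 after TAC, and that of 5 tested sustentacular and Schwann cell markers of 8 between 6.32 and 7.18 and between 6.40 and 7.75. Of the macrophage markers 2 had a higher and 2 a lower mean after TAC, and of the sustentacular and Schwann cell markers 4 and 1. The groups did not overlap for 1 gene in each of these last lists, where this held for 13% of all tested probe sets. Those genes were Csf1r (difference 1.01, limma adjusted p = 0.475) and Sox10 (0.77, limma adjusted p = 0.560), TAC above sham. Both were picked out after their values were seen. The groups also did not overlap for 4 of the 8 fibroblast markers, Dpt, Col1a2 and Col3a1 lower after TAC and Pdgfrb higher. The same held for 2 of the 8 tested neuron markers, Map2 lower and Nefh higher, and for 1 of the 8 chromaffin markers, Pnmt, higher. Like the fibroblast median, the neuron and macrophage medians kept their sign over 18 alternatives (-0.96 to -0.28 and 0.053 to 1.07). The part of cortex, neurons, fibroblasts, macrophages and sustentacular cells in the values below was not tested.

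The upstream sequences of 4 of the genes are shown because they hold the regulatory letters of the gene with the smallest p (Hand2), of 2 further genes whose TAC arrays all lay above sham on one of the scales used below (Isl1 and Phox2a), and of the gene whose groups differed least (Gata3). Each is the 250 bases before the RefSeq start in assembly GRCm38.p6, written in the direction of the gene. Capitals mark E-boxes (CANNTG, which reads the same on both strands) and GATA in either strand (GATA or TATC).
Hand2, chr8:57320733-57320982, plus strand: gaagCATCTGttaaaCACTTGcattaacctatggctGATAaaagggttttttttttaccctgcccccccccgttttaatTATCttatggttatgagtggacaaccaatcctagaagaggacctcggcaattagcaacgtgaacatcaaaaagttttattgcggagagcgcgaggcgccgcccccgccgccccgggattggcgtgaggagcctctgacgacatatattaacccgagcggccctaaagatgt
Isl1, chr13:116309689-116309938, minus strand: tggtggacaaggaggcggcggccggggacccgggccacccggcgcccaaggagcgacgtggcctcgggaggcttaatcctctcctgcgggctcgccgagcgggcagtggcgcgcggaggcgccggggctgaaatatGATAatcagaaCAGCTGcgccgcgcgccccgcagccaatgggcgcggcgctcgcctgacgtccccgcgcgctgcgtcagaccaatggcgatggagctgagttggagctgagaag
Phox2a, chr7:101818063-101818312, plus strand: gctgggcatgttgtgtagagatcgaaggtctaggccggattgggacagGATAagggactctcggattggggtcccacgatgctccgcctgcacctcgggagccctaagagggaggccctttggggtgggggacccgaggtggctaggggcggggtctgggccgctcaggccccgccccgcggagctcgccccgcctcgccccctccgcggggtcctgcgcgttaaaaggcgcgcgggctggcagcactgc
Gata3, chr2:9878601-9878850, minus strand: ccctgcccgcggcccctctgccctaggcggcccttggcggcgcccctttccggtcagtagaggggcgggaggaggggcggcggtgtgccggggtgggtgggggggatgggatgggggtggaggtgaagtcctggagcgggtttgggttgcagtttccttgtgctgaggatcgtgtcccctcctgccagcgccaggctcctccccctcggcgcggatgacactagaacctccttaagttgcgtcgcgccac
Windows were found for 6 of the 8 genes, all except Hand1 and Insm1, with 2 starts for Gata2. The Hand2 window held 2 E-boxes, 2 GATA and 5 TAAT (TAAT or ATTA, the core letters bound by many homeodomain proteins). That of Isl1 held 1 E-box, 1 GATA and 2 TAAT, and that of Phox2a 1 GATA and neither of the others. The Gata3 window and both Gata2 windows held 0 of each, and the Sox11 window held 2 E-boxes, 2 GATA and 1 TAAT. No E-box overlapped a GATA or TAAT match (0 in each window). Among 32851 RefSeq windows of the same length, 66.2% held an E-box, 53.6% GATA and 54.9% TAAT, so a match is common, and it describes letters and not binding.

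TAC and sham were compared to find whether expression of these genes in the medulla differed under cardiac pressure overload. At the probe set of highest mean for each gene, 5 of the 8 genes had a higher mean after TAC and 3 a lower one, where 58.7% of all 10181 tested genes had a higher mean. Over all 12 tested probe sets the balance was the other way, with 5 higher and 7 lower, where 54.7% of all tested probe sets were higher. The median difference was 0.36 for the 8 genes and 0.087 for all tested genes. This gap rests on the choice of the brightest probe set, since with all tested probe sets of each gene averaged the medians were 0.040 and 0.037. None of the 12 probe sets passed an adjusted p of 0.05 in limma (0 of 12), and 0% of all tested probe sets did. At an unadjusted p under 0.05 there were 2 of the 12, Hand2 and Hand1, where 6.94% of all tested probe sets passed. That count was 1, Hand1, after centring, quantile normalization or cyclic loess, where 7.48%, 7.95% and 7.96% of all tested probe sets passed. It was 0 without TAC 3 and 0 without sham 2, where 3.82% and 3.52% of all tested probe sets passed. Without sham 1 it was 1, Hand2, where 13.4% passed. Without sham 3 it was 1, Sox11 at 1429051_s_at with a lower mean after TAC (-1.21), where 4.25% passed. Without TAC 2 it stayed at 2 with other members, Hand2 and Insm1 at 1421399_at, the latter with a lower mean after TAC (-1.37), where 6.7% passed. The groups did not overlap at 3 of the 12, those of Hand2, Hand1 and Isl1, where this held for 13% of all tested probe sets.

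**Figure D1:**
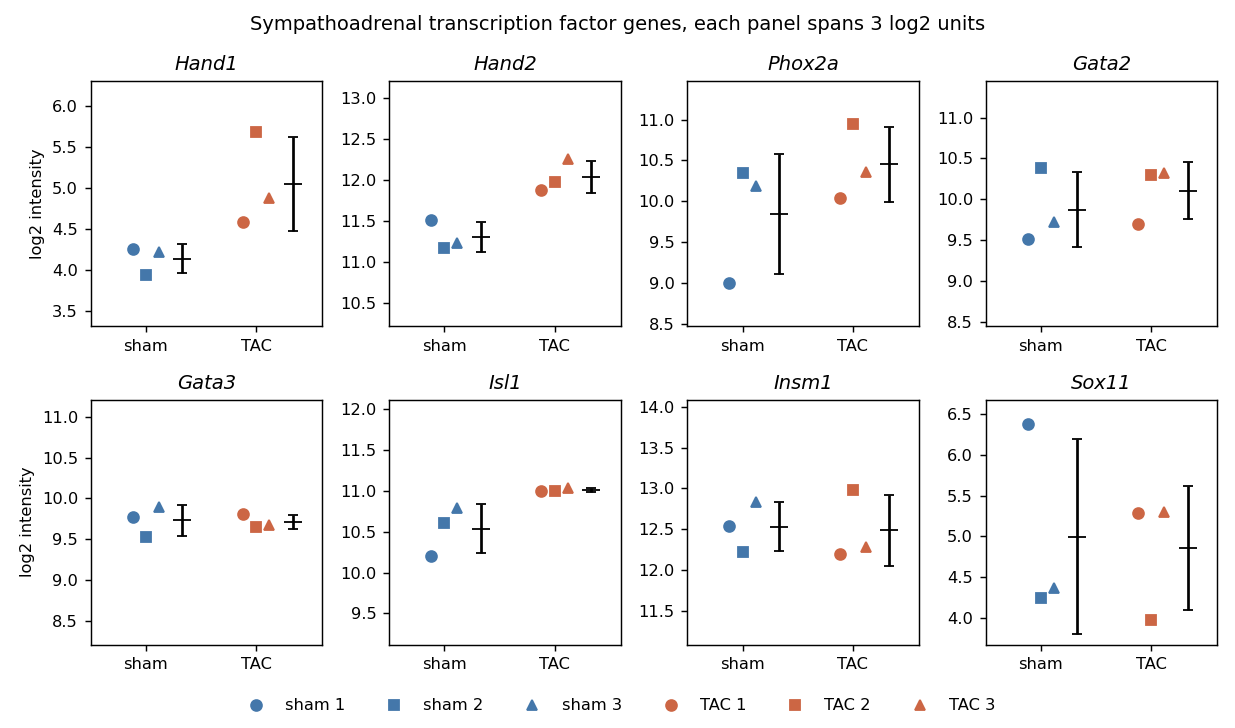
Log2 intensity of the probe set that stands for each of the 8 genes. Points are single arrays, with the same marker for the same replicate number, bars are the mean and SD of 3 arrays, and each panel spans 3 log2 units at its own level. The TAC arrays lie above all sham arrays for Hand1, Hand2 and Isl1, and the sham 1 point is lowest for Phox2a and highest for Sox11.

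Hand2, which encodes the factor that noradrenergic differentiation of sympathoadrenal precursors depends on, had the smallest p among the 8 genes. Its probe set 1436041_at read 11.51, 11.17 and 11.23 in sham 1, 2 and 3, and 11.88, 11.98 and 12.26 in TAC 1, 2 and 3. All TAC values were higher than all sham values, and the arrays within a group differed little, with a pooled SD of 0.19 that lay at the 10.9th percentile of all tested probe sets. The difference was 0.74 ± 0.24 SE, or 1.66-fold (95% interval 0.16 to 1.31, limma adjusted p = 0.584). Since sham 1 had a low array median, its Hand2 value stood high relative to its own array. After subtraction of each array's median Hand2 lay at 5.19, 4.28 and 4.32 in sham and at 5.38, 4.97 and 5.58 after TAC, so sham 1 then exceeded TAC 2 and the groups overlapped. The difference on that scale was 0.71. The other 2 probe sets of Hand2 (1422221_at and 1443854_at) read between 2.16 and 2.90 on all arrays, below the filter, so the Hand2 result rests on 1 probe set.

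Hand1, the close relative of Hand2, read near the detection filter. Its tested probe set 1417525_at gave 4.25, 3.93 and 4.22 in sham and 4.58, 5.69 and 4.87 after TAC. The TAC arrays were above the sham arrays, TAC 2 farthest, and sham 2 was below log2 4. The difference was 0.91 ± 0.34 SE (95% interval 0.077 to 1.75, limma adjusted p = 0.682). It was 0.89 with values under 4 set to 4, and the groups also did not overlap relative to the array medians. Its size depended on single arrays, with 0.59 without TAC 2, and on the scale, with 0.56 on log2(value + 16). In the 3 arrays with the larger Gapdh 3′ to 5′ difference (sham 1, TAC 1 and TAC 3) TAC minus sham was 0.48. In the other 3, TAC 2 against sham 2 and sham 3, it was 1.62. Here and below, each of these parts has only 1 array in a group, sham 1 or TAC 2. The second Hand1 probe set, 1448750_at, read between 2.63 and 3.001, below the filter. The part of RNA integrity in these values was not tested.

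**Figure D2:**
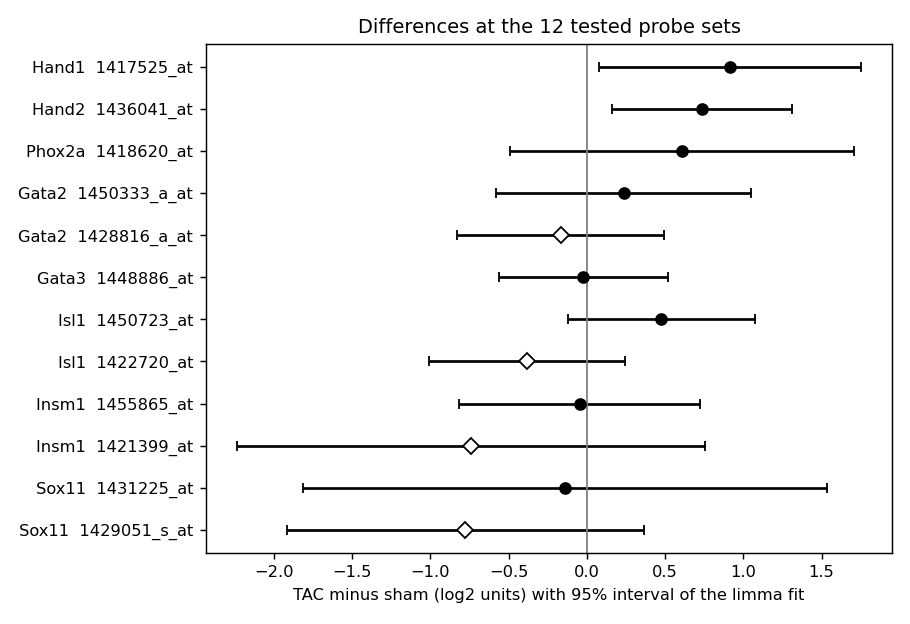
TAC minus sham in log2 units at the 12 tested probe sets, with the 95% interval of the limma fit. Filled circles are the probe sets that stand for their gene and open diamonds the second probe set of the same gene. The intervals of Hand1 and Hand2 lie above 0 and the others span it, and the second probe sets of Gata2, Isl1, Insm1 and Sox11 all lie left of the first.

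Among the homeodomain genes, Phox2a, an activator of the dopamine beta-hydroxylase gene Dbh, had 1 probe set (1418620_at). It read 8.997, 10.35 and 10.18 in sham and 10.05, 10.95 and 10.36 after TAC. Sham 1 was low by more than 1 log2 unit, and the other sham arrays lay within the TAC range. The difference was 0.61 ± 0.45 SE (95% interval -0.49 to 1.71, adjusted p = 0.934), and it was 0.18 without sham 1 and 0.36 without TAC 2. Relative to the array medians the order changed, with 2.68, 3.46 and 3.27 in sham and 3.54, 3.94 and 3.68 after TAC. The TAC values were then all above the sham values, with a difference of 0.58 that did not pass the test (adjusted p = 0.713). On that scale the groups did not overlap at 3 of the 12 probe sets, those of Hand1, Phox2a and Isl1, where this held for 14.3% of all tested probe sets.

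**Figure D3:**
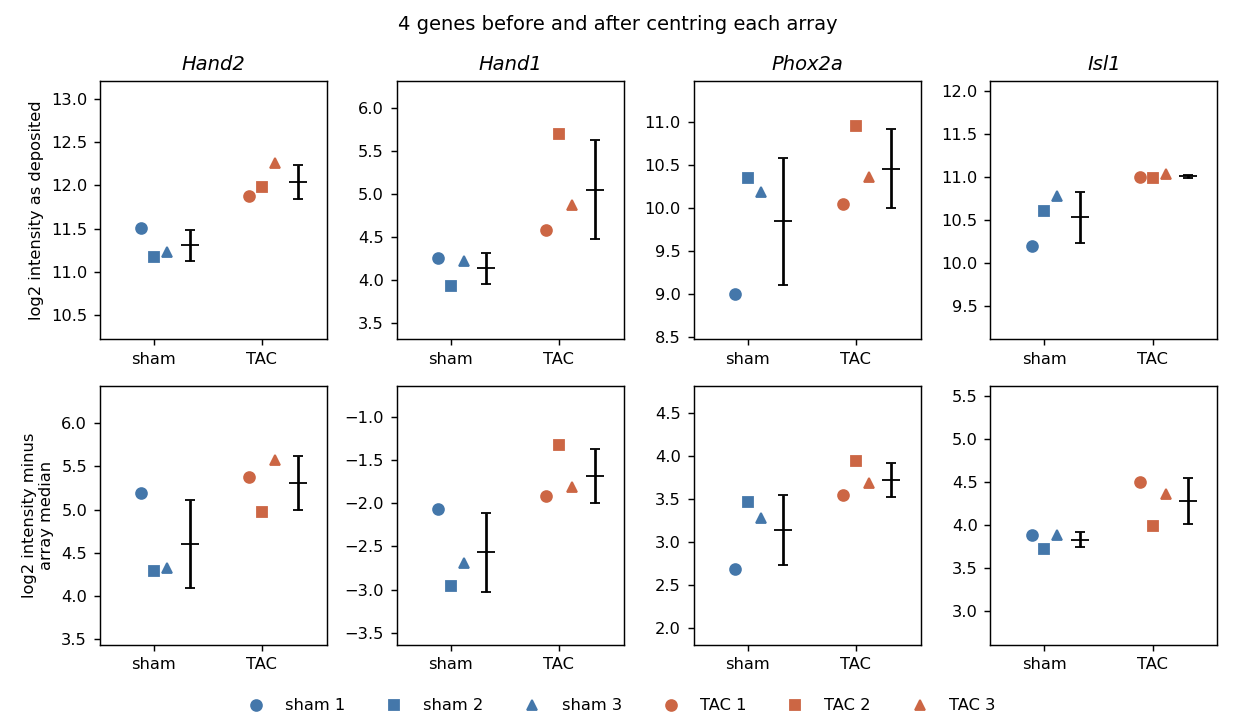
Hand2, Hand1, Phox2a and Isl1 as deposited (upper panels) and after subtraction of each array's median over the tested probe sets (lower panels), in log2 units. Points are arrays and bars the mean and SD of 3. Sham 1 moves up relative to the other arrays in the lower panels, which brings the Hand2 groups into overlap (5.19 in sham 1, 4.97 in TAC 2) and takes the Phox2a groups out of it.

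Isl1, a LIM homeodomain gene, was read by 2 tested probe sets that gave opposite signs. The brighter, 1450723_at, read 10.20, 10.61 and 10.79 in sham and 11.00, 11.00 and 11.04 after TAC. All TAC values were higher than all sham values, and they were close together, with an SD of 0.022 against 0.30 in sham. The difference was 0.48 ± 0.24 SE (95% interval -0.12 to 1.07, adjusted p = 0.821), and 0.31 without sham 1. The other, 1422720_at, read 8.96, 8.80 and 9.10 in sham and 8.81, 8.21 and 8.69 after TAC, which overlapped by the values of sham 2 and TAC 1. Its difference was -0.38 ± 0.26 SE (95% interval -1.01 to 0.24, adjusted p = 0.913), and -0.20 without TAC 2. With both averaged the Isl1 difference was 0.047. In the 3 arrays with the larger Gapdh difference the brighter probe set differed by 0.81 and the dimmer by -0.21, and in the other 3 by 0.30 and -0.74.

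The gap between both Isl1 probe sets, taken within each array, is not changed by a constant shift of an array. It was 1.24, 1.81 and 1.69 in sham and 2.19, 2.79 and 2.35 after TAC, larger in every TAC array than in any sham array. The group means differed by 0.86 (0.85 after quantile normalization and 0.86 after cyclic loess), and the exact 2-sided permutation test gave p = 0.1, the smallest that 3 against 3 arrays allow. The same gap was larger after TAC on average in the 3 other genes with a pair of tested probe sets, Gata2 (0.40), Insm1 (0.70) and Sox11 (0.64), with overlapping groups and p = 0.3 each (exact 2-sided permutation test). Adjusted over the 4 genes all were at 0.3. These within-array comparisons were chosen after the values were seen, and the share of all genes with such a gap was not computed. Over all 10181 tested genes the median difference was 0.087 at the probe set of highest mean and 0.037 with all probe sets averaged.

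**Figure D4:**
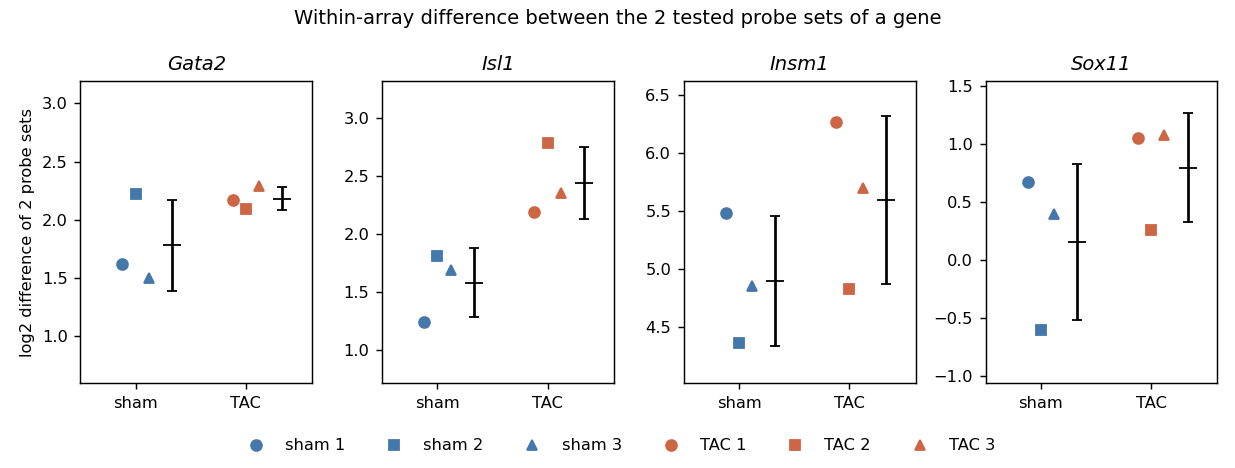
Difference in log2 intensity between the brighter and the dimmer tested probe set of Gata2, Isl1, Insm1 and Sox11, within each array. Points are arrays and bars the mean and SD of 3. The 3 TAC values of Isl1 lie between 2.19 and 2.79, above the sham values of 1.24 to 1.81, and the groups of the other 3 genes overlap.

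The GATA factor genes did not separate the groups. Gata3, whose product chromaffin cells need to make catecholamines, read 9.78, 9.52 and 9.90 in sham and 9.81, 9.65 and 9.68 after TAC at its only probe set, 1448886_at. Its 6 values lay within 0.38 log2 units, and its pooled SD of 0.15 was at the 6.4th percentile of all tested probe sets. The difference was -0.024 ± 0.22 SE (95% interval -0.56 to 0.52, adjusted p = 0.998). Gata2, which endothelial and blood cells also express, read 9.51, 10.39 and 9.72 in sham and 9.70, 10.29 and 10.33 after TAC at 1450333_a_at. Sham 2 was the highest of these 6 arrays, and the difference was 0.23 ± 0.34 SE (95% interval -0.58 to 1.05, adjusted p = 0.982). It was 0.49 without sham 2 and 0.054 without sham 1, and 0.033 with both probe sets averaged. At the second probe set, 1428816_a_at, Gata2 read 7.89, 8.16 and 8.22 in sham and 7.53, 8.20 and 8.04 after TAC, a difference of -0.17 ± 0.27 SE (adjusted p = 0.983). Of 8 markers of mast cells and T cells, which also express these genes, 7 were below the filter and Cd4 read between 4.16 and 4.84. Of 8 endothelial markers 4 were tested, with a mean between 5.81 and 6.85 in sham and between 5.56 and 6.74 after TAC. Their part in the Gata2 and Gata3 values was not tested.

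Insm1, which encodes a repressor that neuroendocrine cells need to mature, read 12.54, 12.23 and 12.83 in sham and 12.19, 12.98 and 12.28 after TAC at 1455865_at. The groups overlapped throughout, and the difference was -0.046 ± 0.32 SE (95% interval -0.82 to 0.72, adjusted p = 0.998). At the dimmer probe set 1421399_at the values were 7.06, 7.86 and 7.98 in sham and 5.93, 8.15 and 6.59 after TAC. TAC 2 was the highest and TAC 1 the lowest of the 6 there, and the SD after TAC was 1.14. The difference was -0.74 ± 0.61 SE (95% interval -2.24 to 0.75, adjusted p = 0.946). It was -0.26 without TAC 1 and -1.37 without TAC 2, and 0.24 in the 3 arrays with the smaller Gapdh difference.

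Sox11, a gene of developing sympathetic cells, was near the detection filter and varied most among the 8 genes. Its probe set 1431225_at read 6.37, 4.24 and 4.37 in sham and 5.29, 3.98 and 5.30 after TAC. Sham 1 was more than 1 log2 unit above every other array, and the 3 arrays with the larger Gapdh difference were the 3 highest. The difference was -0.14 ± 0.69 SE (95% interval -1.81 to 1.53, adjusted p = 0.998), and it was 0.55 without sham 1. At 1429051_s_at Sox11 read 5.70, 4.84 and 3.97 in sham and 4.24, 3.73 and 4.22 after TAC, again highest in sham 1. That difference was -0.78 ± 0.47 SE (95% interval -1.92 to 0.36, adjusted p = 0.884), -0.35 without sham 1 and -1.21 without sham 3. The other 4 probe sets of Sox11 were below the filter. All 7 probe sets of the 8 genes that stayed below the filter read highest in sham 1, as did 77.3% of all 26849 probe sets below it. The part of this array's background in the Sox11 values was not tested.

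Hand2 was also set against the other 7 genes within each array, a measure that a constant shift of an array does not change and that was chosen after the values were seen. Hand2 minus Gata3 was 1.73, 1.65 and 1.33 in sham and 2.07, 2.34 and 2.58 after TAC. Hand2 minus Insm1 was -1.04, -1.06 and -1.60 in sham and -0.32, -1.0015 and -0.028 after TAC. In these 2 of the 7 comparisons all TAC arrays were above all sham arrays, by 0.76 and 0.78 on average, each with p = 0.1 in the exact 2-sided permutation test and 0.35 adjusted over the 7. Set in the same way against each of the other 18187 tested probe sets, Hand2 gave TAC arrays above all sham arrays for 26.2%. Against Hand1, Phox2a, Gata2, Isl1 and Sox11 the groups overlapped, with mean differences of -0.18, 0.13, 0.50, 0.26 and 0.87. After quantile normalization and after cyclic loess the groups stayed apart for Gata3 (0.73 and 0.76) and Insm1 (0.80 and 0.78), and after cyclic loess also for Sox11 (0.80).

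The 8 genes did not follow 1 pattern over the arrays. Likeness was measured as the root mean square difference, over the 6 arrays, between log2 values centred on each probe set's own mean, which is 0 for the same pattern. Of the 28 pairs of these genes the closest were Gata3 with Insm1 (0.30), Hand2 with Isl1 (0.32) and Gata3 with Isl1 (0.32). Hand1 with Hand2 came to 0.37, and Sox11 with Phox2a, the farthest pair, to 1.36. Sox11 lay far from genes in general, with the median gene at 1.12 from it against 0.45 to 0.64 for the other 7. Among 9812 other tested genes the nearest pattern to Hand2 was that of Doc2b (0.055), followed by Syt7 (0.060), where the median gene was at 0.59. For Isl1 these were Dhx33 (0.024) and Trim3 (0.049), for Gata3 Cdc20 (0.057) and Tusc1 (0.059), and for Gata2 Capn10 (0.073) and Arfgef2 (0.083). Phox2a was nearest to Mex3b (0.082) and Cdon (0.090), and Insm1 to Nat14 (0.12) and Heyl (0.13). Hand1 was nearest to Myh14 (0.16) and Sez6l (0.17), and Sox11 to Slc12a9 (0.066) and Cep192 (0.16). With 6 arrays and 9812 genes some pattern always lies near, and all share the same arrays and their quality.

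Other transcription factor genes of the lineage showed no called difference. Of 26 listed, 23 had a probe set of their own and 18 were tested, 12 of them with a higher and 6 with a lower mean after TAC (median 0.066). In limma 0 passed the adjusted threshold and 0 an unadjusted p under 0.05. Of all tested genes 58.7% had a higher mean, the share to set beside this list and the lists that follow. The 2 with the smallest p were Prox1, a homeobox gene, and Zeb2, a zinc finger repressor gene of the neural crest. Prox1 read 6.08, 5.78 and 6.04 in sham and 5.35, 5.50 and 4.23 after TAC, without overlap (difference -0.94 ± 0.39 SE, adjusted p = 0.718), and the difference was -0.54 without TAC 3. Zeb2 read 7.61 ± 0.59 (SD) in sham and 6.58 ± 0.82 after TAC (difference -1.03 ± 0.51 SE, adjusted p = 0.805), with overlap, and the difference was -0.64 without TAC 1. The groups did not overlap for 2 of the 18, where this held for 13% of all tested probe sets. These were Prox1, lower after TAC, and Tfap2b, higher (chosen after its values were seen). Tfap2b encodes an AP-2 factor of sympathoadrenal cells and read 10.84 ± 0.19 (SD) in sham and 11.26 ± 0.11 after TAC (adjusted p = 0.833).

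Of 24 partner and inhibitor genes, which include the E proteins that pair with Hand factors, the Id inhibitors of that pairing and the Gata cofactors of the Zfpm family, 20 were tested. In limma, 13 had a higher and 7 a lower mean after TAC (median 0.047), with 0 past the adjusted threshold. At an unadjusted p under 0.05 there was 1 of the 20, where 6.94% of all tested probe sets passed. That gene was Crebbp, which encodes a histone acetyltransferase recruited by many transcription factors. It read 7.79, 8.41 and 8.02 in sham and 8.82, 9.33 and 9.09 after TAC, without overlap (difference 1.004 ± 0.27 SE, adjusted p = 0.514). Mta1, which encodes a subunit of a histone deacetylase complex, followed with 4.99 ± 0.064 (SD) in sham and 5.46 ± 0.13 after TAC (difference 0.47 ± 0.21 SE, adjusted p = 0.750). The groups did not overlap for 4 of the 20, where this held for 13% of all tested probe sets. These were Crebbp, Mta1 and Zfpm1, higher after TAC, and Hdac2, lower.

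All 16 genes of catecholamine synthesis, storage and granules on the list were tested, and 7 had a higher and 9 a lower mean after TAC (median -0.17), with 0 past the adjusted threshold and 0 at an unadjusted p under 0.05 in limma. The 2 with the smallest p were the vesicular monoamine transporter gene Slc18a2 and the enkephalin precursor gene Penk. Slc18a2 read 10.15, 11.00 and 10.27 in sham and 9.49, 10.16 and 9.68 after TAC, overlapping at sham 1 and TAC 2 (difference -0.69 ± 0.33 SE, adjusted p = 0.787). Penk read 6.57 ± 0.81 (SD) in sham and 5.71 ± 0.51 after TAC (difference -0.86 ± 0.49 SE, adjusted p = 0.870). Without sham 2 the difference was -0.43 for Slc18a2 and -0.45 for Penk. The groups did not overlap for 1 of the 16, where this held for 13% of all tested probe sets. That gene was Pnmt, with TAC above sham (difference 0.27 ± 0.21 SE, limma adjusted p = 0.939), picked out after its values were seen. The medians of these 3 lists lay close to 0 and changed sign in 5, 6 and 3 of 18 alternatives, in the order given.

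**Figure D5:**
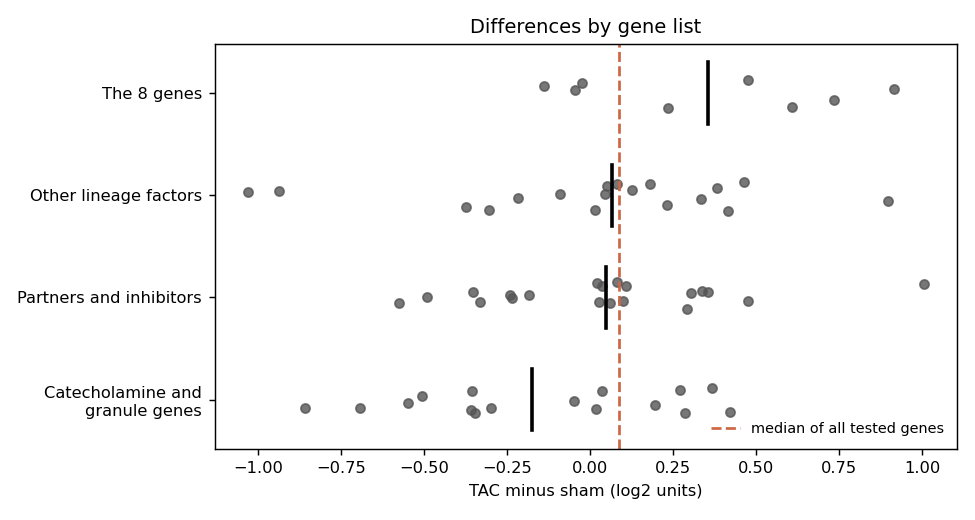
TAC minus sham in log2 units for the tested members of 4 gene lists. Points are genes (vertical position within a row carries no meaning), black bars the list medians and the dashed line the median of all tested genes (0.087). The 8 genes spread from -0.14 to 0.91, and each of the other 3 lists spans values below and above 0.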

How the data were processed

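The deposited table holds 1 intensity per probe set for each of the 6 arrays, on a linear scale, and the authors' processing used GCRMA, per the submitters' processing notes, with version and options not given in the sources used here. GCRMA corrects for background, so values near the bottom of the scale carry little information. Intensities were taken as deposited and transformed to log2. The 64 array controls were left out. GEO's annotation gave 1 symbol for 34945 probe sets, several for 932 and none for 9160. The probe set of highest mean stood for a gene. The comparison used limma (version 3.58.1, R 4.3.3), a 2-sided moderated test of lmFit and eBayes on 4 residual degrees of freedom, without covariates and with Benjamini-Hochberg adjustment over all 18188 tested probe sets. The procedure was also run on simulated arrays with known changes and independent noise. Those lack the array-wide differences seen here, so the simulation cannot show how the procedure deals with them. The number of arrays limits the precision, with a median SE of 0.39 for a difference.

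The 8 genes and the lists were chosen with earlier results of these data known. Named were every probe set of the 8 genes, the 2 nearest patterns for each, and the 2 genes of smallest p in each list. Further list genes, named because their groups did not overlap, were picked after their values were seen. Alternatives were scaling, pseudocount, floor, filter, array weights, the replicate number as a block, probe set averaging and leaving out arrays. No coordinates of probe sets are given, since the table names no genome build.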

Additional observations from a re-analysis of the deposited data

How the results depend on the processing

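No probe set of the 8 genes passed an adjusted p of 0.05 in limma under any alternative except array weights, and the sign of Hand2, Hand1, Phox2a, Isl1 (each probe set), Gata2 at 1450333_a_at and Sox11 at 1429051_s_at held under all that were run. Over these, Hand2 lay between 0.56 and 1.01, Hand1 between 0.48 and 1.62 and Phox2a between 0.14 and 1.21. The lowest Hand2, both Hand1 and the highest Phox2a values came from the Gapdh parts, which have 1 array in a group. With array weights 6698 of 18188 probe sets passed, and 4 of the 12, namely Hand2 (1.01, adjusted p = 0.00511), Hand1 (0.81, adjusted p = 0.0147), Insm1 at 1421399_at (-1.27, adjusted p = 0.0123) and Sox11 at 1431225_at, whose sign turned (0.87, adjusted p = 0.0406). The weights were 6.11 for TAC 3 and 0.143 for sham 1, so these calls rest largely on 1 TAC array. Of the 6 genes named for the smallest p in the other lists 5 also passed with these weights, all except Mta1, and Prox1 (-1.55, adjusted p = 0.00715) and Penk (-1.67, adjusted p = 0.00864) had the largest differences there. Hand2 otherwise had an adjusted p from 0.2498 upward. Signs turned when single arrays were left out, over ranges of -0.31 to 0.029 for Gata2 at 1428816_a_at, -0.13 to 0.059 for Gata3, -0.29 to 0.10 for Insm1 at 1455865_at and -0.52 to 0.55 for Sox11 at 1431225_at. Without sham 1 and TAC 1 together Insm1 at 1455865_at was 0.11 and Sox11 at 1431225_at 0.33. In the 3 arrays with the smaller Gapdh difference (TAC 2 against sham 2 and sham 3) Gata2 at 1428816_a_at was 0.012, Insm1 0.46 at 1455865_at and 0.24 at 1421399_at. The cause of these turns was not tested. Titles number the replicates 1 to 3 in both groups. Deviations of same-numbered arrays from their group mean correlated at 0.76, 0.78 and -0.22, and those of arrays with unlike numbers between -0.84 and 0.71. Since the 3 deviations in a group sum to 0, these values cannot settle pairing, and the numbers were not taken as pairs. With the replicate block Hand2 kept its difference of 0.74 at an adjusted p of 0.2498, and 0 probe sets passed. At an unadjusted p under 0.05 in limma 16.5% of all tested probe sets passed with the block, against 6.94% without it. The Hand1 and Sox11 probe sets were not tested at a mean of log2 6, which they do not reach, and 1 probe set each limits Hand1, Hand2, Phox2a and Gata3.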
